A study of Mus musculus with 6 samples.

Results

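The suprabasal keratins are the intermediate filament proteins that keratinocytes make once they leave the basal layer of the epidermis. The 6 genes described here, Krt1, Krt10, Krt2, Krt77, Krt78 and Krt80, were taken by name from the keratins of spinous and granular cells, and each was found in the deposited expression table, 6 of the 53 protein-coding keratin genes there. Libraries came from epidermis of C57BL/6 mouse embryos at E19.5. In 3 of them (263, 265 and 266) the genotype label reads Rictor -/- and the title ricEKO, and the other 3 (261, 262 and 264) are labelled control. Rictor is a protein that mTOR complex 2 needs to form, and the study asked how mRNA levels differ between Rictor-deficient and control epidermis. No label names the driver of the deletion or says whether the libraries are from separate animals, so the p-values cover only library-to-library spread, which may be technical.

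Keratin filaments are built from pairs, each of a type I and a type II chain. Basal keratinocytes make Krt14 (type I) with Krt5 (type II), and cells entering the spinous layer switch to Krt10 (type I) with Krt1 (type II), a switch widely used as the sign that a keratinocyte has begun to differentiate. Krt2 is a later type II keratin that joins the filaments of upper spinous and granular cells, in adult mice mainly of ear, tail and sole skin. Krt77 is a type II relative of Krt1, listed in RefSeq also as K1emb, and Krt78 and Krt80 are type II keratins of differentiating epithelial cells. Of the 6, only Krt10 is type I and lies in the keratin cluster on chromosome 11, while the type II genes lie on chromosome 15.

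Krt1 and Krt77 are next to each other, 7.9 kb apart, and are close in sequence, so it matters for their values whether reads can tell them apart. With 1 annotated transcript taken per gene, 0 of the 6 contained a stretch of 50 bases that also occurs, on the same strand, in a transcript of another gene (GENCODE M21). Only exact matches were sought. How reads with mismatches were assigned was not tested, and Krt77 lay far below Krt1 in level. The 60 bases of coding sequence that Krt77 shares most closely with Krt1, within 1 exon of each, are shown with the bases that differ in capitals. They lie in exon 2 of Krt77 (GRCm38, chr15:101865606-101865665, minus strand) and in exon 2 of Krt1 (chr15:101849099-101849158, minus strand), and 54 of 60 bases are identical.
Krt77: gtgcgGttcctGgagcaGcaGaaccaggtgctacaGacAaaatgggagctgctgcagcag
Krt1: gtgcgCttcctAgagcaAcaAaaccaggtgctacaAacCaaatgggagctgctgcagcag
Between the partners Krt10 and Krt1, whose chains belong to different types, the closest 60 bases lay in the repeats that encode the glycine-rich tails of both proteins, with 50 of 60 identical. These are in exon 7 of Krt10 (chr11:99386170-99386229, minus strand) and exon 9 of Krt1 (chr15:101846077-101846136, minus strand).
Krt10: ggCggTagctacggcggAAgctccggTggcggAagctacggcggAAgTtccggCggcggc
Krt1: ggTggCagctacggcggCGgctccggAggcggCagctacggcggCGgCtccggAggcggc

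The values are FPKM, fragments per kilobase of transcript scaled to the mapped fragments of the library, computed by the authors. Differences are knockout-labelled minus control on log2(FPKM + 1) ± SE from limma, fitted to the 13500 genes whose group mean reached 1 FPKM in one group or both, with 3 libraries per group and Benjamini-Hochberg adjustment. The libraries summed to between 609375 and 672925 FPKM, and by the step size of their lowest values each was sequenced 1.0 to 1.21 times as deeply as control 261. Rictor itself read 6.83, 7.04 and 6.86 FPKM in the libraries labelled knockout (263, 265, 266) and 5.63, 6.02 and 4.37 FPKM in those labelled control (261, 262, 264; limma, adjusted p = 0.0694). The targeted gene was thus not lower where the labels say knockout. A whole-gene value takes in exons outside any deleted part and does not check the labels, so all directions given are those of the labels. A library's departure from each gene's mean was related to the length of the gene, with a Spearman coefficient across genes of 0.173, 0.191 and 0.263 in 263, 265 and 266 and of -0.007, 0.003 and -0.358 in 261, 262 and 264.

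None of the 5 suprabasal keratins that entered the test passed an adjusted p of 0.05 (limma), while 23.5% of all tested genes did. Without adjustment, 1 of the 5, Krt77, had a p under 0.05. An adjusted p is never below the unadjusted one, so at least 23.5% of all tested genes were under 0.05 without adjustment too. The 1 of 5 is thus not a larger share than that of all tested genes. Krt2 did not enter, because it was below 1 FPKM in every library. Krt10 and Krt77 were the members whose groups did not overlap, in opposite directions, where the groups were apart for 45.8% of tested genes, 16.6% with the knockout-labelled libraries above and 29.2% with them below. In bulk epidermis, fewer cells of a type and less RNA per cell cannot be told apart.

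Krt10 (ENSMUSG00000019761, chromosome 11, 99385254 to 99389364), the type I keratin of the pair, had the highest mean of all protein-coding genes. Its level was 11214.5, 11079.8 and 11987 FPKM in knockout-labelled 263, 265 and 266, while controls 261, 262 and 264 had 12681, 13047 and 13023 FPKM. Every knockout-labelled library was lower than every control, and the controls lay closer together. The means were 11427 ± 489.7 FPKM in knockout-labelled and 12917 ± 205 FPKM in control libraries (SD, n = 3 each). The log2 difference of -0.18 ± 0.10 (95% interval -0.42 to 0.07) did not pass (limma, adjusted p = 0.251). It was -0.12 under median scaling and -0.01 after adjustment for gene length and GC content. After quantile normalization, which sets levels by rank and so can show little difference in a top gene, it was -0.06. The limma adjusted p of Krt10 stayed above the threshold in all alternatives. It was lowest with array weights (-0.14, limma adjusted p = 0.0799) and next lowest without the intensity trend of limma (-0.18 ± 0.06, adjusted p = 0.0935). A short annotated antisense gene, Gm11940, overlaps Krt10 with 35.6, 40.7 and 46.1 FPKM in knockout-labelled 263, 265 and 266, while controls 261, 262 and 264 had 43.4, 47.7 and 48.6 FPKM. No source used here states whether strand was kept, so reads from the stretch that both genes cover (within 99387340 to 99387897) cannot be assigned to one of them, while the rest of Krt10 lies outside it.

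Krt1 (ENSMUSG00000046834, chromosome 15, 101845426 to 101850794), the type II partner, ranked next after Krt10 among all protein-coding genes. Its values were 9799.9, 9919 and 10611 FPKM in knockout-labelled 263, 265 and 266, while controls 261, 262 and 264 had 10082, 9847 and 10304 FPKM. All 3 controls lay within the range of the knockout-labelled libraries. Means were 10109.9 ± 438 FPKM in knockout-labelled and 10078 ± 228 FPKM in control libraries (SD, n = 3 each), a log2 difference of 0.00 ± 0.10 (limma, adjusted p = 0.982). The 95% interval, -0.24 to 0.25, spans 0.848-fold to 1.19-fold, so differences within those bounds could not be resolved here.

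Krt77 (ENSMUSG00000067594, chromosome 15, 101858731 to 101869705) showed the largest difference of the 5 tested members. Knockout-labelled 263, 265 and 266 held 37.0, 99.4 and 61.8 FPKM, while controls 261, 262 and 264 held 27.9, 21.8 and 34.8 FPKM. The groups did not overlap, but library 263 lay just above control 264, and 265 was far above the other knockout-labelled libraries. With means of 66.1 ± 31.4 FPKM in knockout-labelled and 28.2 ± 6.53 FPKM in control libraries (SD, n = 3 each), the ratio of means was 2.35. The log2 difference was 1.12 ± 0.35, with a 95% interval of 0.29 to 1.94 and limma adjusted p = 0.0593, outside the threshold. It passed in 4 of 16 alternatives, namely without library 263 (1.47, limma adjusted p = 0.0276), after adjustment for length and GC content (1.24, adjusted p = 0.0433), with a minimum mean of 5 FPKM (1.12, adjusted p = 0.0494) and with array weights (1.07, adjusted p = 0.0149). Without library 265 the difference was 0.77 (limma adjusted p = 0.119). At its mean level Krt77 was 22nd among the keratins, far below its neighbour Krt1.

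Among the knockout-labelled libraries, Krt77 was lowest where the wound keratins were highest. The summed FPKM of Krt6a, Krt6b, Krt16 and Krt17, keratins of wounded epidermis, was 7105, 3795 and 5463 in 263, 265 and 266, the reverse of the order of Krt77. In controls 261, 262 and 264 the same sum was 1270.1, 1112 and 1478 FPKM, in the same order as Krt77. Most of this control sum was Krt17, at 1144, 1020 and 1337 FPKM, and Krt16 had the same order. Krt6a (52.8, 42.9 and 43.7 FPKM) and Krt6b (10.20, 5.88 and 10.19 FPKM) did not, being highest in 261. With 3 libraries per group these orders are a description.

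Krt78 and Krt80, at the next levels below Krt10 and Krt1, overlapped between the groups. Krt78 (ENSMUSG00000050463, chromosome 15, 101946001 to 101954287) had 140.1, 127 and 153 FPKM in the knockout-labelled libraries 263, 265 and 266, and 120.0, 156 and 75.6 FPKM in the controls 261, 262 and 264. Control 264 was the lowest of the 6 libraries and control 262 the highest. The log2 difference of 0.31 ± 0.24 (95% interval -0.27 to 0.90; limma, adjusted p = 0.383) shrank to 0.03 without control 264. Krt80 (ENSMUSG00000037185, chromosome 15, 101347444 to 101370162) had 149, 174 and 155 FPKM in knockout-labelled 263, 265 and 266, and 173, 152 and 127 FPKM in controls 261, 262 and 264. Its lowest value was again that of control 264. Krt80 is overlapped on the opposite strand by the antisense gene Gm35853 and by Mir1941, so the same limit of strand holds for the stretches they cover. The log2 difference was 0.09 ± 0.12 (95% interval -0.21 to 0.38; limma, adjusted p = 0.635), and -0.03 without control 264.

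Krt2 (ENSMUSG00000064201, chromosome 15, 101810689 to 101818169) was listed at 0.143, 0.0273 and 0.135 FPKM in knockout-labelled 263, 265 and 266, while controls 261, 262 and 264 had 0.278, 0.135 and 0.589 FPKM. Its groups overlapped, and at such values a handful of reads sets the level. With the filter on low values removed, the log2 difference was -0.26 ± 0.13 (limma, adjusted p = 0.288). By mean FPKM Krt2 ranked 49th among the 53 keratins, although it lies only 27.3 kb from Krt1.

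**Figure D1:**
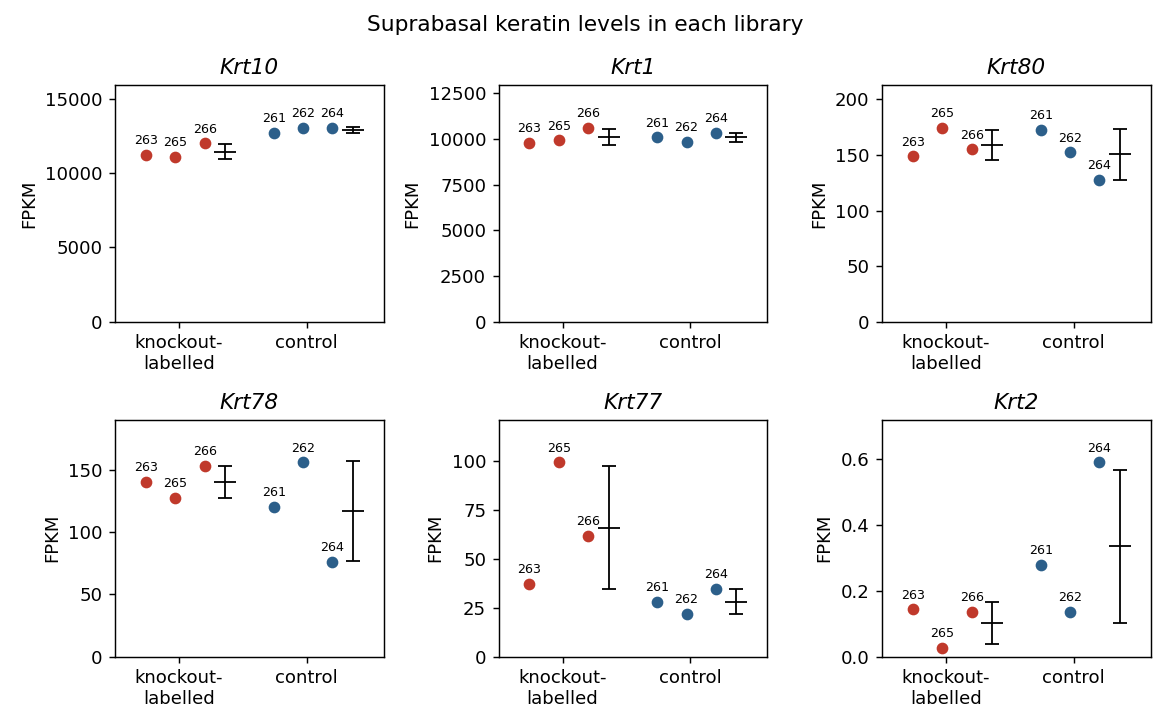
FPKM of each suprabasal keratin in the knockout-labelled (red) and control (blue) libraries on linear axes from 0, with library numbers beside the points and the group mean ± SD (n = 3) as a black bar. Krt10 lies lower and Krt77 higher in all 3 knockout-labelled libraries, Krt1, Krt78, Krt80 and Krt2 overlap, and the axis of Krt2 ends below 1 FPKM.

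The order of levels was the same for the most abundant members in both groups: Krt10 above Krt1 in all 6 libraries, and both far above Krt80, Krt78 and Krt77, with Krt2 lowest. Krt80 and Krt78 averaged 159 ± 13.5 and 140.1 ± 12.7 FPKM in knockout-labelled libraries and 151 ± 22.8 and 117 ± 40.1 FPKM in controls (SD, n = 3 each). Krt80 was above Krt78 in every library but control 262, although their ranges overlapped in both groups. FPKM is per length, but no source used here gives the transcript lengths behind it, which limits such comparisons between genes. Together, Krt1 and Krt10 made up 98.1% to 98.5% of the summed FPKM of the 6 genes in knockout-labelled libraries and 98.6% to 99.0% in controls.

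Because both genes of a ratio come from the same library, ratios between members do not depend on scaling between libraries. Krt1 over Krt10, the type II chain over its type I partner, was 0.874, 0.895 and 0.885 in 263, 265 and 266, against 0.795, 0.755 and 0.791 in 261, 262 and 264. All 3 knockout-labelled libraries were above all 3 controls, and the gap was wider than the range within either group. On the log2 scale the ratio differed by 0.18 (exact permutation test, two-sided, p = 0.1, adjusted over 5 ratios 0.25), where 0.1 is the smallest p that 3 libraries against 3 allow. Adjusted for length and GC content, Krt1 differed by 0.07 and Krt10 by -0.01, a smaller gap than the 0.18 of the deposited values. The length used there was that of all annotated exons merged, 4415 bases for Krt1 and 2114 for Krt10. The annotated transcripts taken above have 2455 bases for Krt1 and 2094 for Krt10, and adjustment by these was not tested. Summed over the 5 type II members, the ratio to Krt10 was 0.917 ± 0.0143 in knockout-labelled libraries and 0.803 ± 0.0209 in controls (SD, n = 3 each).

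Relative to Krt10, Krt77 was 2.45 times as high in the knockout-labelled libraries as in controls. This is a log2 difference of 1.29 on FPKM + 1, with groups that did not overlap (exact permutation p = 0.1, adjusted 0.25). The corresponding differences were 0.49 for Krt78 and 0.27 for Krt80, with overlapping groups (exact permutation p = 0.2 and 0.3, adjusted 0.333 and 0.375). Without control 264 they were 0.20 for Krt78 and 0.14 for Krt80. That of Krt2, -0.09 (exact permutation p = 0.8, adjusted 0.8), rests on Krt2 values below 1 FPKM and was -0.85 with a pseudocount of 0.1 and 0.11 with one of 5.

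The suprabasal pair was also set against the basal pair, chain by chain. Krt10 over Krt14, both type I, was 1.62, 2.16 and 2.06 in knockout-labelled 263, 265 and 266, against 5.08, 5.55 and 4.49 in controls 261, 262 and 264. The highest knockout-labelled ratio was under the lowest control, and the log2 difference was -1.38 (exact permutation p = 0.1, adjusted over 2 ratios 0.1, the smallest possible). Krt1 over Krt5, both type II, was 1.81, 1.95 and 2.07 in 263, 265 and 266, against 2.97, 2.94 and 2.72 in 261, 262 and 264. These groups did not overlap either, with a log2 difference of -0.57 (exact permutation p = 0.1, adjusted 0.1). Of the single genes, the basal partner differed more in both ratios: Krt14 rose, to a mean 2.30 times that of controls (limma, adjusted p = 0.00373), and Krt5 rose by 0.57 ± 0.10 (adjusted p = 0.00972), beside -0.18 for Krt10 and 0.00 for Krt1. Krt15, the other basal keratin, fell by 0.72 ± 0.14 (limma, adjusted p = 0.0148). Krt5 and Krt15 missed the threshold without library 263 (limma, adjusted p = 0.0540 and 0.0567) and without a filter on low values (adjusted p = 0.208 and 0.0581).

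**Figure D2:**
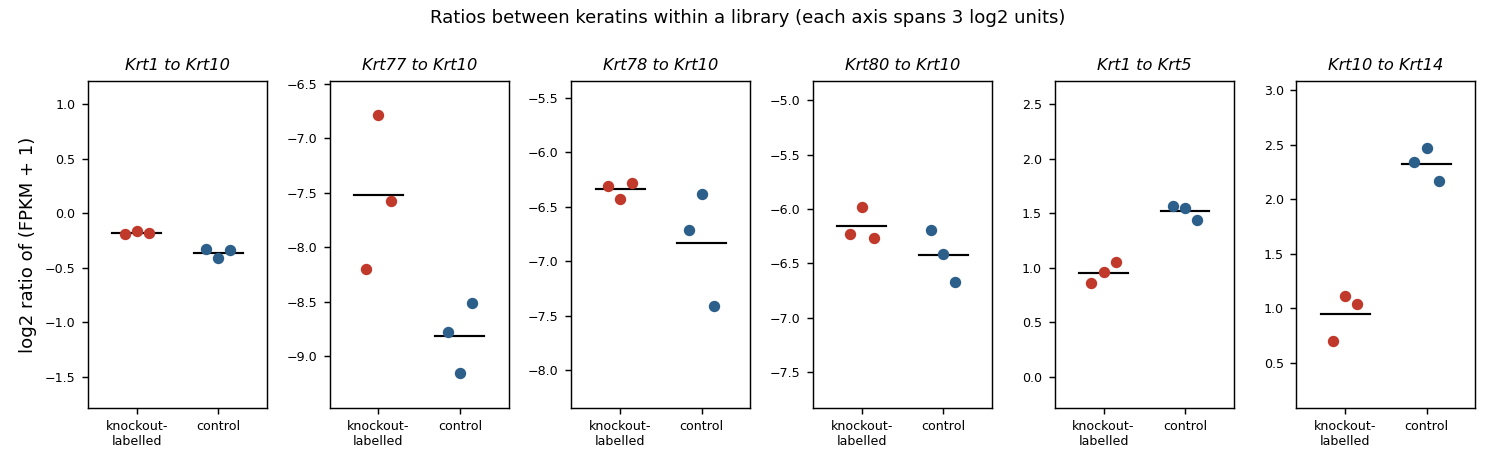
Within-library log2 ratios of (FPKM + 1) for Krt1, Krt77, Krt78 and Krt80 to Krt10, Krt1 to Krt5 and Krt10 to Krt14, in knockout-labelled (red) and control (blue) libraries, with horizontal lines at the means and axes of equal span. The groups are apart for Krt1 to Krt10, Krt77 to Krt10, Krt1 to Krt5 and Krt10 to Krt14, and overlap for Krt78 and Krt80.

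As a part of all keratin RNA, the suprabasal keratins took a smaller share in the knockout-labelled libraries. Their share of the summed FPKM of the 53 keratin genes was 48.7%, 55.7% and 54.0% in 263, 265 and 266, against 65.1%, 66.4% and 64.4% in 261, 262 and 264. No knockout-labelled library reached the lowest control, and the difference of means was -12.5 percentage points, between -14.0 and -10.5 with any 1 library left out. Krt10 took 27.5% ± 1.72 in knockout-labelled libraries and 36.2% ± 0.952 in controls (SD, n = 3 each). Krt1 took 24.4% ± 1.80 in knockout-labelled libraries and 28.3% ± 0.156 in controls. The share of Krt77 was 0.0844%, 0.259% and 0.145% in 263, 265 and 266, against 0.0786%, 0.0624% and 0.0952% in 261, 262 and 264. Unlike its FPKM and its ratio to Krt10, this share overlapped between the groups, and so did those of Krt78 and Krt80. The summed FPKM of the 6 genes was 21903 ± 923 in knockout-labelled libraries and 23291 ± 247 in controls, with groups that did not overlap. As a percentage of all FPKM in a library, the 6 genes took 3.43%, 3.46% and 3.77% in 263, 265 and 266, against 3.67%, 3.72% and 3.50% in 261, 262 and 264, and these values overlapped.

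Basal and wound keratins took the larger shares in the knockout-labelled libraries. The 3 basal keratins made up 29.2% ± 0.837 of keratin FPKM there and 21.6% ± 0.474 in controls (SD, n = 3 each). The 4 wound keratins made up 16.2%, 9.87% and 12.8% in 263, 265 and 266, against 3.58%, 3.18% and 4.04% in 261, 262 and 264. The remaining 40 keratin genes took 5.08% ± 0.278 in knockout-labelled libraries and 9.44% ± 0.712 in controls. All keratin genes together held 41609 ± 2815 FPKM in knockout-labelled libraries and 35665 ± 835 FPKM in controls. Shares of a pool sum to a whole, so a larger part of one group goes with a smaller part of the others. In knockout-labelled libraries the wound keratins Krt6a, Krt6b, Krt16 and Krt17 rose by 4.50, 6.29, 4.68 and 0.63 on the log2 scale (limma, adjusted p = 0.000502, 0.000644, 0.000865 and 0.0226). Krt17 missed the threshold without a filter on low values and without any 1 of 261, 262, 263 and 266 (limma, adjusted p up to 0.0856), while the other wound keratins and Krt14 passed in every alternative run.

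**Figure D3:**
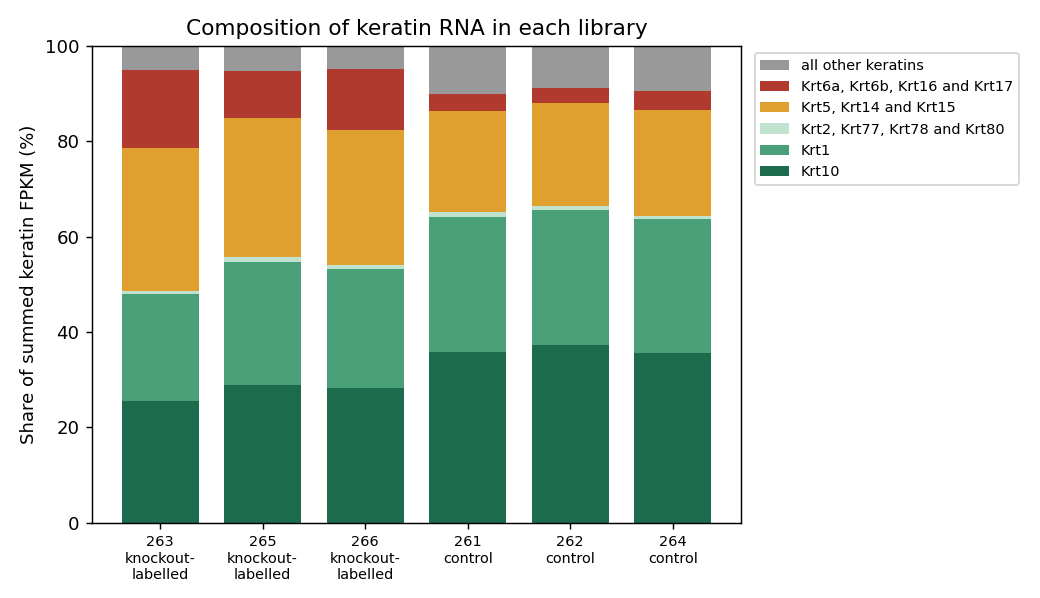
Stacked bars of the share of summed keratin FPKM in each library, knockout-labelled libraries on the left and controls on the right, divided into Krt10, Krt1, the other 4 suprabasal keratins, basal keratins, wound keratins and all other keratins. The green suprabasal part ends between 48.7% and 55.7% in knockout-labelled libraries and between 64.4% and 66.4% in controls.

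Across the keratin family, 40 genes were tested, of which 7 rose and 23 fell (limma, adjusted p under 0.05), against 7.91% rising and 15.6% falling among all tested genes. The 5 tested suprabasal members were among the 10 that did neither, and their median log2 difference was 0.09, beside -0.66 over the tested keratins and -0.06 over all tested genes. On chromosome 15, Krt2, Krt1 and Krt77 follow each other. Beside Krt2 lie Krt73, Krt72 and Krt71, inner root sheath keratins that fell by 0.67, 1.24 and 0.97 on the log2 scale (limma, adjusted p = 0.00743, 0.00250 and 0.00406). Beyond Krt77 come Krt76 and Krt4, too low to test, and Krt79, at -0.20 (limma, adjusted p = 0.0919), before Krt78. On chromosome 11, Krt10 lies between Krt28, a root sheath keratin that fell by 0.82 ± 0.10 (limma, adjusted p = 0.00447), and Krt12, too low to test. Of 23 hair keratins of the family, taken by keratin number, 22 were tested, of which 21 fell and 0 rose. The other, Krt84, did not reach a group mean of 1 FPKM. It had 0.798, 0.982 and 1.09 FPKM in knockout-labelled 263, 265 and 266, against 0.322, 0.170 and 0.223 FPKM in controls 261, 262 and 264.

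**Figure D4:**
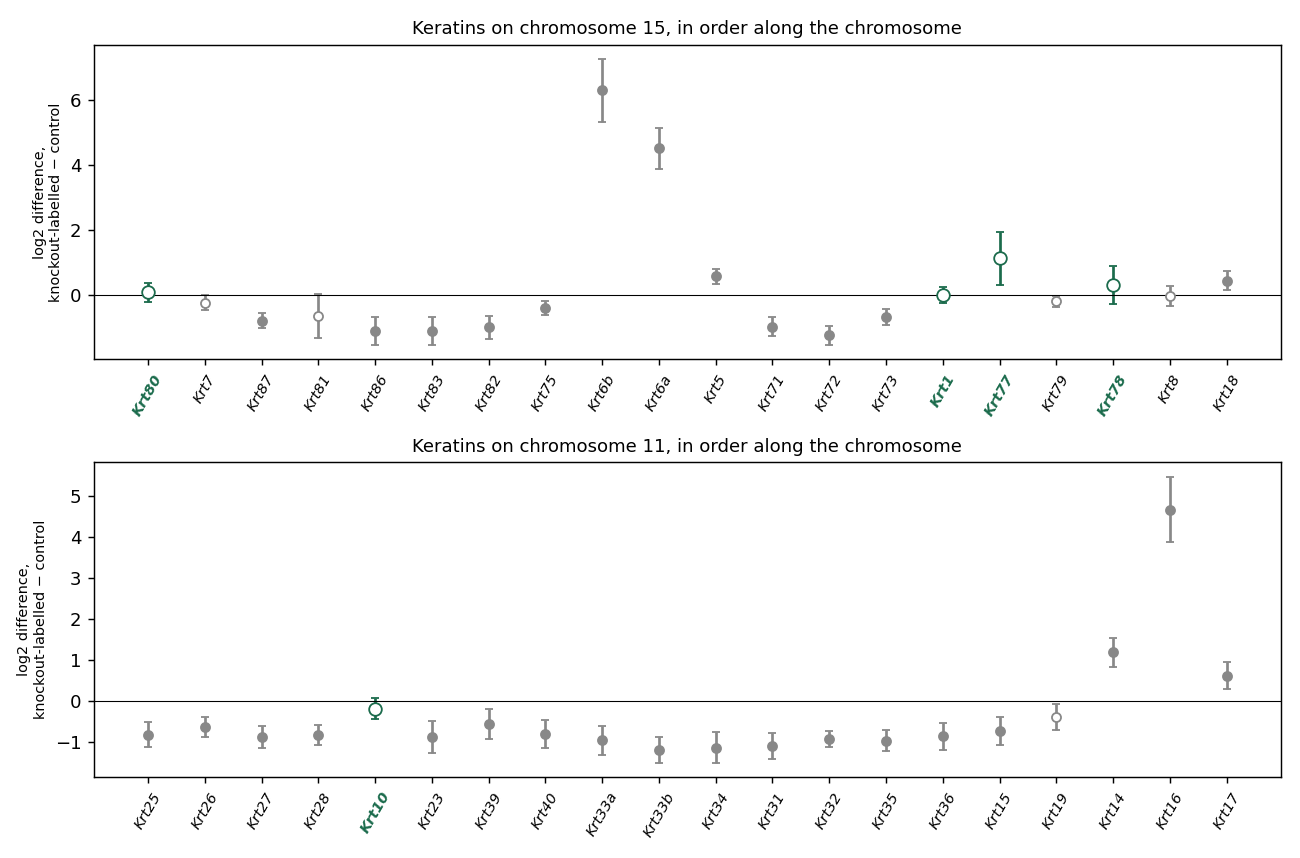
Log2 difference in FPKM + 1, knockout-labelled minus control, with its 95% interval from limma for the tested keratins of the clusters on chromosomes 15 and 11, in chromosomal order. Green symbols are suprabasal keratins, and filled symbols passed an adjusted p of 0.05: all 5 green symbols are open, and most grey ones are filled.

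The proximal promoters of Krt77 and Krt10, the members whose groups did not overlap, are shown because their values lay on opposite sides of the controls, although neither gene passed the test. The sequences are the 250 bases before the annotated start from RefSeq (GRCm38.p6), which matched 4 of the 6 genes, Krt10, Krt2, Krt77 and Krt78. Capitals mark matches to TATANA on either strand, where overlapping matches run together, and TGANTCA, the AP-1 motif, was searched in the same way. Krt77 lies at chr15:101869706-101869955 and Krt10 at chr11:99389365-99389614, both on the minus strand.
Krt77: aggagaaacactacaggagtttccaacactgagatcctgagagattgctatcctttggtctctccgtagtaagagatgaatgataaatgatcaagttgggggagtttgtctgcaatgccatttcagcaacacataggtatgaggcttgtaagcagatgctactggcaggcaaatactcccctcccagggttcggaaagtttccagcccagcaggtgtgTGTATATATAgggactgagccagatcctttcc
Krt10: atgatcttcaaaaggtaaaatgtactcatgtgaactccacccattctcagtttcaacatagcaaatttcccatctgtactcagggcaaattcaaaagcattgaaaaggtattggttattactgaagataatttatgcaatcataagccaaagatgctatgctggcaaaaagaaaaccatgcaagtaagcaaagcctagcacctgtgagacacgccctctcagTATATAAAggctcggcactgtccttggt
The TATANA matches began 32, 30 and 28 bases before the start in Krt77, 28 and 26 in Krt10 and 29 in Krt2, and Krt78 had 0. Among all 32851 windows of this length, 22.6% held TATANA anywhere and 3.1% held it on the gene's strand beginning 20 to 40 bases before the start. TGANTCA was found in 0 of the 4 promoters and in 6.7% of all windows. These are letter matches, not shown binding sites.

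Other genes that accompany suprabasal keratins in spinous and granular cells were mixed. Of 36 listed genes, all tested, 5 rose (13.9%) and 8 fell (22.2%), with a median log2 difference of -0.10, beside 7.91%, 15.6% and -0.06 over all tested genes. Rising members included Tgm1, the transglutaminase that cross-links the cornified envelope, at 139 ± 10.3 FPKM in knockout-labelled and 87.5 ± 3.09 FPKM in control libraries (SD, n = 3 each; log2 0.66 ± 0.08, limma adjusted p = 0.00335). Cnfn, an envelope component, rose by 0.70 ± 0.07, the protease inhibitor Serpinb2 by 1.57 ± 0.17, and the prostaglandin synthase Ptgs1 by 0.42 ± 0.08. Falling members included the transglutaminase Tgm3 (-1.23 ± 0.12), the thioesterase Them5 (-0.94 ± 0.12), the envelope protein Crnn (-0.89 ± 0.10) and Casp14, a protease of filaggrin breakdown (-0.77 ± 0.08). Casp14 was at 136 ± 12.8 FPKM in knockout-labelled and 232 ± 1.82 FPKM in control libraries (SD, n = 3 each). These 8 were the called members with the smallest p in each direction, with limma adjusted p between 0.00225 and 0.0155. Without library 263 or without 266, 3 rose and 5 fell. Without 261, 5 fell, and without 264, 12 fell. Counts over all tested genes moved too: 477 rose and 985 fell without 263, and 537 and 1001 without 266. They were 634 and 1289 without 261, and 1514 and 2270 without 264, beside 1068 and 2101 with all libraries.

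Of 41 listed transcription factors and chromatin regulators that act on keratinocyte differentiation, all tested, 7 rose (17.1%) and 2 fell (4.88%), with a median log2 difference of 0.11, against the same background. Fosl1, an AP-1 subunit, was at 27.8, 30.3 and 20.1 FPKM in 263, 265 and 266, while the 3 controls had 1.87 to 2.12 FPKM. Its groups were far apart, with a log2 difference of 3.16 ± 0.15 (limma, adjusted p = 0.000359). Another AP-1 subunit, Junb, rose by 0.57 ± 0.10, Tfap2c, an AP-2 factor of keratinocytes, by 0.42 ± 0.07 and Ets1 by 0.38 ± 0.08. The falling members were Cebpa, a C/EBP factor of suprabasal cells, at -0.36 ± 0.07 (limma, adjusted p = 0.0159), and Gata3, at -0.34 ± 0.08 (limma, adjusted p = 0.0249). Cebpa was at 144 ± 7.04 FPKM in knockout-labelled and 185 ± 9.03 FPKM in control libraries (SD, n = 3 each). The count of falling members was 1 under median scaling and 6 without control 264, and it was 1 without 265 and 0 without 261, 263 or 266. That of rising members was 3 without 263 and 4 without 265. Among all tested genes, 580 rose and 1165 fell without 265, and 1523 rose and 1663 fell under median scaling. The all-gene counts without 261, 263, 264 or 266 are those given above for the spinous and granular genes.

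The genes outside the keratin family most like the members were sought among 1691 tested genes averaging at least 50 FPKM, by Pearson's r of log2(FPKM + 1) over the 6 libraries. For Krt10 they were Saraf, an inhibitor of store-operated calcium entry (r = 0.985, Spearman's rho 0.943), and the lectin Lgals3 (r = 0.985, rho 0.886). Lgals3 was at 488.5 ± 47.4 FPKM in knockout-labelled and 696 ± 49.6 FPKM in control libraries (SD, n = 3 each) and fell by 0.51 ± 0.10 (limma, adjusted p = 0.0145). Saraf was at 61.4 ± 2.10 FPKM in knockout-labelled and 67.1 ± 0.910 FPKM in control libraries (log2 -0.13 ± 0.06, limma adjusted p = 0.156). For Krt1 the 2 genes were the selenium carrier Selenop (r = 0.956, rho 0.943) and the actin regulator Abi1 (r = 0.950, rho 0.657). Selenop was at 3178 FPKM in library 266 and between 116 and 491 FPKM in the other 5. For Krt2 they were Arpc3 (r = 0.990, rho 0.943) and Atp6v1g1 (r = 0.988, rho 0.771), on Krt2 values below 1 FPKM. With 6 libraries and so many candidates, values this high are to be read as a description only.

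Other cell types that separated epidermis can hold were followed by their markers. The counts stand beside 7.91% of all tested genes rising and 15.6% falling. Of 6 basal keratinocyte markers, which include Krt5, Krt14 and Krt15, 5 rose and 1 fell, and their summed FPKM was 11989.8 to 13875 in knockout-labelled and 8006 to 8522 in control libraries. Of 5 hair follicle markers 4 fell and 0 rose, and these 4 (Krt25, Krt27, Krt71 and Krt35) are keratins counted above in the family (817 to 957 FPKM against 1381 to 1729 FPKM in controls). Of 5 tested dermal fibroblast markers 3 rose (376 to 415 FPKM against 302 to 331 FPKM in controls), and of 5 melanocyte markers 4 fell (264 to 296 FPKM against 351 to 437 FPKM in controls). In myeloid markers 4 of 5 tested fell, at 24.5 to 26.9 FPKM against 36.2 to 47.6 FPKM in controls, and both tested gamma delta T cell markers fell. Endothelial markers summed to less than 1 FPKM in every library, red cell and muscle markers overlapped between the groups, and of 3 tested simple and oral epithelium markers 1 rose. None of the listed markers was at 0 in all libraries. The part of these differences in the shares and ratios of the suprabasal keratins was not tested.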

How the data were processed

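RNA of separated epidermis was extracted on a QIAGEN RNeasy column and prepared as Illumina libraries, per the labels' protocols. The authors deposited 1 table of FPKM, with a column per library. CASAVA and Cufflinks with build GRCm38 are named in the submitters' processing notes, without versions. The sources used here give no aligner, annotation or strandedness. No count model was used, since FPKM are not counts.

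Of 49452 rows, 49109 Ensembl IDs matched a symbol in the reference gene table, and the highest-mean row per symbol was kept (66 left out). Values were analysed as log2(FPKM + 1), which understates changes of low genes, keeping genes whose group mean reached 1 FPKM in one group or both. Lengths and coordinates are from GENCODE M21. The linear model of limma 3.58.1 (R 4.3.3) used an intensity trend, two-sided p-values, a Benjamini-Hochberg threshold of 0.05 and no covariates. It was tested on simulated data. Ratios and shares within libraries were computed in Python 3.11.15. Genes named beside the members followed a rule: basal and wound keratins, the 4 called genes with the smallest p in each direction from each list, and the 2 most correlated genes. Others (Krt71, Krt72, Krt73, Krt76, Krt4, Krt79, Krt28, Krt12, Krt84, Gm11940) were chosen after their values were seen. Members and lists were chosen with earlier results of these data known. Alternatives were other pseudocounts (0.1 and 5), filters, scalings, variance models, a length and GC adjustment and each library left out. Recounting lists and shares under them was added after seeing the data.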

Additional observations from a re-analysis of the deposited data

How the results depend on the processing

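For the 5 tested members and 16 alternatives each, 75 of 80 differences kept their direction and 4, all of Krt77, passed the threshold (limma). The count of directions includes Krt1, whose difference of 0.00 ± 0.10 has no direction to keep, and Krt80, at 0.09 ± 0.12. With quantile normalization Krt1 differed by -0.07 (median scaling 0.07). It was -0.03 without library 266 and -0.01 without 262. With array weights Krt80 differed by -0.11, and by -0.03 without control 264. With a library left out the members spanned -0.03 to 0.03 (Krt1), -0.21 to -0.16 (Krt10), 0.77 to 1.47 (Krt77), 0.03 to 0.55 (Krt78) and -0.03 to 0.19 (Krt80). Krt77 passed with array weights (1.07), in the length and GC adjustment (1.24) and with a minimum mean of 5 FPKM (1.12). The ratio of Krt2 to Krt10, -0.09, was -0.85 with a pseudocount of 0.1, 0.11 with one of 5 and 0.04 without control 264, and ran from -0.20 to 0.04 with a library left out. All other ratios kept their direction with pseudocounts of 0.1 and 5 and with a library left out, as did the shares with a library left out. Ratios were not recomputed under the other alternatives. With quantile normalization the single-gene differences were -0.07 for Krt1 and -0.06 for Krt10. That method gives each gene a level set by its rank in the library. Both genes rank at or near the top, so this setting cannot check the gap of 0.18 between them. The cause of these shifts was not tested.

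Called genes numbered 3169, of which 33.7% were higher (47.8% under median scaling, 52.6% in the length and GC adjustment), 6272 with array weights and 1462 (without 263) to 3784 (without 264) with a library left out. With array weights 8 spinous and granular genes rose and 12 fell, and 13 regulators rose and 7 fell. Over all 13500 tested genes, 2335 rose and 3937 fell in that setting. In the length and GC adjustment 11 regulators rose and 1 fell, where 1761 of all tested genes rose and 1586 fell. Under median, trimmed mean and quantile scaling 1 regulator fell. With a library left out, 3 to 6 spinous and granular genes rose and 5 to 12 fell, and 3 to 8 regulators rose and 0 to 6 fell. No paired analysis was possible because the labels used here name no pairs of knockout-labelled and control libraries, such as by litter. With 3 libraries per group the exact tests could not go below 0.1, or 0.2 with a library left out, and no read counts were available for counting errors.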
